A study of Rattus norvegicus with 2 samples.

Results

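The regions described here are the SP1-bound intervals of the rat heart that lie close to another such interval. Each has 1 summit, lies on chromosomes 1 to 20 and has its nearest neighbour, an interval of any kind, at most 10 kb away. The members were chosen by their measured peak positions, so gap lengths describe the choice and nothing is tested with them. The rule found 1593 members among 6698 intervals with 1 summit, which is 23.8% (Wilson 95% confidence interval 22.8% to 24.8%), and the other 5105 intervals with 1 summit are the comparison below. Counting the 351 intervals with several summits as well, 1670 of 7049 intervals, or 23.7%, had such a neighbour.

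Specificity protein 1 (SP1) was precipitated from left ventricular chromatin of male Sprague-Dawley rats by chromatin immunoprecipitation followed by sequencing (ChIP-seq). The study used it to ask whether SP1 sits at the promoter of *Cirbp*, the gene of a cold-inducible RNA-binding protein. The series has 2 libraries, 1 SP1 immunoprecipitate (IP) and 1 input without antibody, both labelled sham, and the list of peaks of the IP library is the data. The labels name left ventricular myocardium as well as primary cardiomyocytes and give no age and no number of animals. With 1 library per group there was no replicate and no test, and every confidence interval given covers counting error only. Those of shares and medians treat the SP1 intervals as independent. Members are often each other's neighbours, so these ranges can be too narrow even for counting error.

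SP1 is a zinc finger transcription factor that is present in most cell types and binds GC-rich elements known as GC boxes. Such elements are frequent in CpG island promoters, where several often lie side by side, and SP1 molecules can associate with each other, also when bound at separate sites. A pair of nearby peaks can therefore stand for separate binding sites or for a single bound stretch that a peak caller reported in pieces, and a peak list does not tell these apart. Whether the members hold GC boxes, lie in promoters or fall in exons or introns was not analysed here, since no gene positions or genome sequence of the build of the list were used. The processing notes of the submitters name the assembly Rnor_6.0, while the scaffold names of the list belong to a later rat assembly, so the build is uncertain and members are named by the positions of the list alone.

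For each member the list gives a fold enrichment, the ratio of IP over the local background at the summit. Fold and p value together also fixed the whole number of IP tags (reads or read pairs counted once) and the tags expected from input, for all 7525 summits of the list. The expectation has a genome-wide floor of 0.326 tags, at which 5 tags give a fold of 4.52, 6 tags a fold of 5.28 and 7 tags a fold of 6.03. A step of 1 tag is thus as large as most of the differences in fold described below.

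Many close neighbours lay far inside the limit. The gap from a member to its nearest interval, measured between edges, had a median of 1329 bp (95% confidence interval 1113 to 1610 bp) with quartiles of 350 and 5419 bp. Where members are each other's nearest, the same gap enters for both. Counted once each, the 943 gaps of at most 10 kb between successive intervals had a median of 1687 bp (1329 to 2219 bp). Of the members, 535 or 33.6% (31.3% to 35.9%) had a gap of at most 500 bp, and 735 or 46.1% (43.7% to 48.6%) had one of at most 1000 bp. Between summits the median distance to the nearest interval was 1671 bp, and the shortest was 373 bp. For the other intervals with 1 summit the median gap was 64896 bp.

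The gaps between successive intervals showed a sharp peak and a long, slowly falling tail. Gaps over 200 and up to 400 bp came at 1205 per kb of gap length (exact 95% Poisson interval 1058 to 1367). The rate fell to 335 per kb between 400 and 600 bp and to 170 per kb between 800 and 1000 bp. From 2 to 10 kb it was 57.2 per kb (52.1 to 62.7), and from 10 to 20 kb, beyond the rule, 47.1 per kb (42.9 to 51.6). The rate was 46 per kb between 9 and 10 kb and 50.5 per kb between 10 and 12 kb, so no step lay at the limit of 10 kb, whereas most of the excess over this tail lay below 2 kb.

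**Figure D1:**
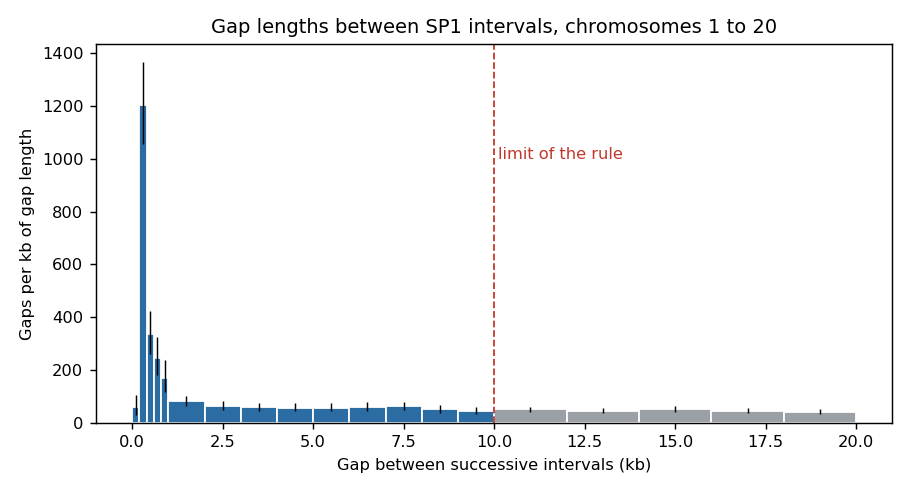
The bars show the number of gaps between successive SP1 intervals per kb of gap length (y axis) against the gap in kb (x axis), in blue up to the limit of 10 kb and in grey beyond it, with exact 95% Poisson intervals as lines. The tallest bar, 1205 per kb, stands at 200 to 400 bp, and from 2 kb on the bars stay between 42 and 65 per kb.

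Within the sharp peak the counts fell steadily with distance. There were 93 gaps over 200 and up to 250 bp, 63 in the next 50 bp, then 47, 38, 22 and 12 up to 500 bp. The smallest gap in the list was 193 bp and the narrowest interval 192 bp, so intervals closer than about 1 minimum width were never listed apart. The closest pairs were 3 with a gap of 193 bp and 3 with a gap of 195 bp, and their intervals rested on 4 to 13 tags. The 273 pairs of mutual neighbours at most 500 bp apart spanned a median of 987 bp (965 to 1031 bp) from edge to edge. In comparison, intervals with several summits, which the caller had kept whole, had a median width of 770 bp.

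Members just inside the limit varied in strength. The 5 members first in order of gap, 9906 to 9985 bp, had folds of 3.77, 5.48, 5.36, 10.9 and 11.3. The fold of 10.9 rested on 54 tags at an expectation of 12.5 times the floor, and a further member tied with the last of them at 9906 bp had a fold of 3.77. The 5 intervals just outside, with gaps of 10017 to 10099 bp, had folds of 4.90, 4.52, 5.28, 3.77 and 4.52.

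The members were slightly weaker than the other intervals with 1 summit. Their fold had a median of 5.45 (5.28 to 5.60, n = 1593) against 5.95 (5.86 to 6.004, n = 5105) for the others, with quartiles of 4.52 and 6.79 against 4.56 and 7.43. The median was lower for members on 19 of 20 chromosomes, the exception being chromosome 11 with a median of 6.004 over 19 members against 5.89. Both groups had a median of 7 IP tags, but 64.0% of members (61.6% to 66.4%) rested on 7 tags or fewer against 55.5% (54.1% to 56.8%) of the others. Among counts of 4 to 8 tags, the groups differed most at 6 tags, with 19.8% of members and 15.7% of the others. The difference of the medians is smaller than the fold of 1 tag, and since fold comes from the same peak calls as the rule it is given as a description.

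Strong peaks followed the same direction up to a point. A fold of at least 10 was found for 92 members, or 5.78% (4.73% to 7.03%), against 8.38% (7.65% to 9.18%) of the others and 7.76% of all intervals with 1 summit. A −log10 q of at least 10 was found for 10.2% of members (8.78% to 11.8%), against 13.9% (13.0% to 14.9%) of the others and 13.0% of all. At a fold of at least 20 the order turned, with 12 members, or 0.753% (0.431% to 1.31%), against 11 of the others, or 0.215% (0.120% to 0.385%), and 0.343% of all. The members were therefore weaker at the centre of the distribution and held more of its extreme values, which are few.

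Strength did not change evenly with distance. The median fold was 5.69 for gaps of at most 500 bp, 5.28 between 500 and 1000 bp, 5.28 between 1 and 2 kb, 5.41 between 2 and 5 kb and 5.28 between 5 and 10 kb. Beyond the limit it was 6.02 between 10 and 20 kb, 5.99 between 20 and 50 kb and 6.03 between 50 and 100 kb. It was 5.82 (5.69 to 5.97) between 100 and 500 kb, the largest class with 1533 intervals, and 5.53 for the 314 intervals with no neighbour within 500 kb. Hence each class of members had a lower median than intervals 10 to 100 kb from their neighbour, and than those 100 to 500 kb away, although the 95% confidence intervals for gaps of at most 500 bp (5.28 to 5.89) and of 2 to 5 kb (5.28 to 5.93) reached into those of wider gaps. The median of the most isolated intervals lay within the range of the members.

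**Figure D2:**
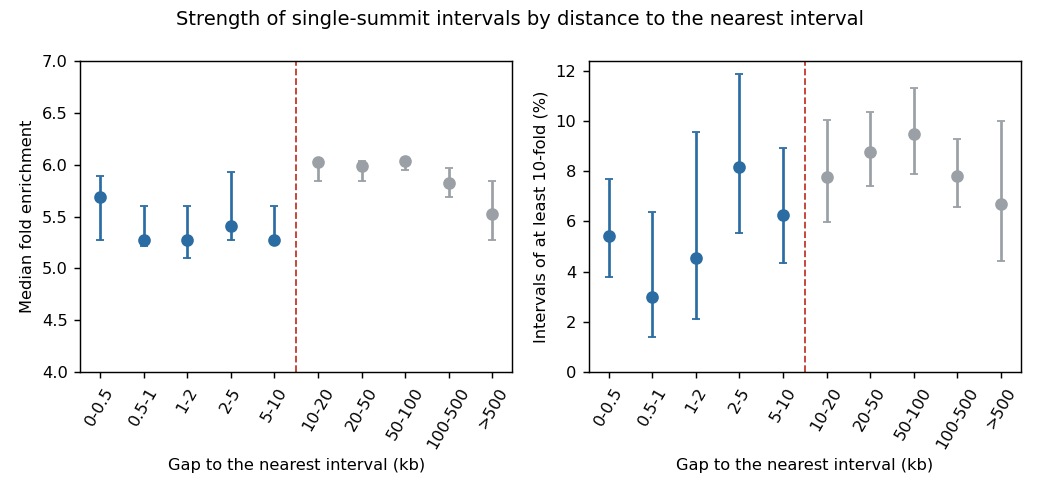
The left panel shows the median fold enrichment with its 95% confidence interval (y axis, not starting at 0), and the right panel the share of intervals of at least 10-fold in percent with its Wilson interval, both by the gap in kb to the nearest interval (x axis). Members, in blue, have medians of 5.28 to 5.69, while intervals 10 to 100 kb from a neighbour, in grey, have medians of 5.99 to 6.03; the red line marks the limit of the rule.

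The intervals of members were also narrower. The median width was 314 bp (303 to 323 bp) against 353 bp (346 to 358 bp), and 47.1% of members (44.6% to 49.5%) were at most 300 bp wide against 38.4% (37.1% to 39.8%) of the others. The summit of a member did not lean toward its neighbour. It lay on the facing side of the interval centre in 50.3% of members (47.8% to 52.7%), and in 47.1% (42.9% to 51.3%) of those with a gap of at most 500 bp.

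The 10 members of highest fold had neighbours with folds from 3.51 to 76.2. These members were picked as extremes, so a weaker neighbour is likely by the choice alone. Of all intervals with 1 summit, 7.76% had a fold of at least 10 and 0.343% one of at least 20. The strongest member lay at chromosome 10, positions 36262750 to 36263557, where 130 tags gave a fold of 95.1 (exact 95% Poisson interval 79.6 to 113). Its neighbour 3226 bp away had 7 tags and a fold of 6.03. At chromosome 19, positions 51610376 to 51610633, 99 tags gave a fold of 70.0, and the neighbour 2862 bp away had 10 tags and a fold of 8.29. The member at chromosome 4, positions 76772811 to 76773174, reached a fold of 52.8 on 69 tags. This one had a strong neighbour, an interval with several summits 4826 bp away with 124 tags and a fold of 76.2.

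The remaining strong members followed either pattern, mostly the first. At chromosome 3, positions 2235089 to 2235324, a fold of 43.0 stood 5517 bp from a fold of 11.9. At chromosome 6, positions 72224491 to 72224947, a fold of 30.1 stood 2219 bp from a fold of 21.1, the only other pair of the 10 with both folds above 20. The last 5, on chromosomes 6, 17, 12, 7 and 2, had folds of 26.8, 24.9, 22.6, 22.2 and 21.9, and their neighbours 196 to 1124 bp away had 4 to 8 tags and folds of 3.51 to 6.79.

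Over the whole set, the rank of an interval by fold did not go with the rank of its partner. Of the members and their neighbours, 752 pairs were mutual, meaning that each was the nearest interval of the other and at least 1 was a member. Spearman's rho between the folds of the partners was -0.00148 over these 752 pairs, and 0.0157 between their tags. By distance it was -0.0341 over 273 pairs with gaps of at most 500 bp, -0.0464 over 153 pairs between 500 and 2000 bp, and 0.0397 over 326 pairs between 2 and 10 kb. These values are descriptions over pairs from 1 library. Partners can share input windows, and the expectation of partners did go together, with a rho of 0.347.

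Few tags limit what a pair can show. The stronger partner had a median fold of 6.70 (6.51 to 6.79) and the weaker one 4.80 (4.52 to 4.90), and the ratio within a pair had a median of 1.34 (1.30 to 1.39). For 705 of 752 pairs, or 93.8% (91.8% to 95.3%), the exact binomial interval of the split of tags included an even split, and at these counts only a very uneven split could leave it out. Both partners reached a fold of 10 in 5 pairs, or 0.665% (0.284% to 1.55%), 1 of them did in 94 pairs, or 12.5% (10.3% to 15.1%), and neither did in 653. A fold of 20 was reached by both in 2 pairs, or 0.266% (0.0730% to 0.964%), by 1 in 10 pairs and by neither in 740. Of all intervals with 1 summit, 0.343% had a fold of at least 20. That is a share of intervals and not of pairs, so it does not give how often both partners would be strong. It also leaves out intervals with several summits, such as the one in the strong pair on chromosome 4. Since strong pairs are few, a rho over all pairs says little about them.

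**Figure D3:**
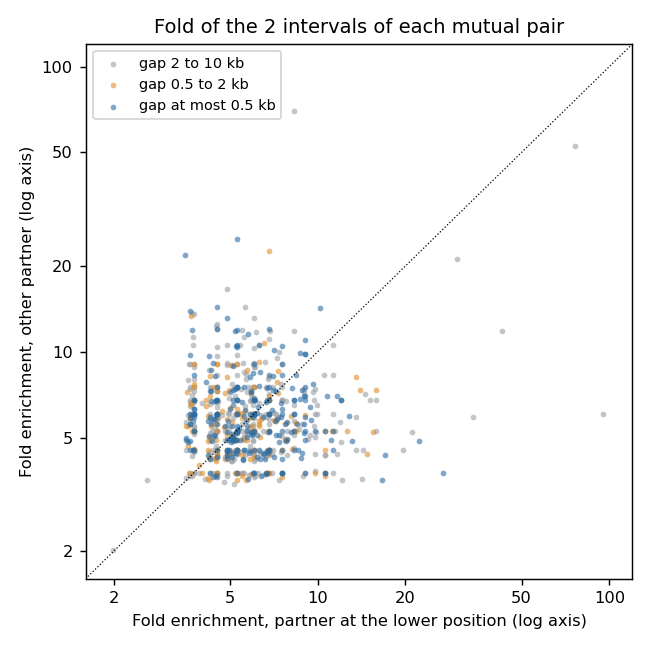
Each point is 1 of 752 mutual pairs, with the fold enrichment of the partner at the lower position on the x axis and of the other partner on the y axis, both on log axes, coloured by the gap. The points form a cloud with no slope along the dotted line of equal fold, and the few strong intervals mostly stand beside partners under 10-fold.

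The picture differed when only intervals whose −log10 q reached 10 were kept and nearest neighbours were found anew among them. This gave 17 mutual pairs. Some of them joined intervals that had other nearest neighbours in the full list, so the 17 are no subset of the 752 pairs. Over the 17 pairs Spearman's rho of the folds was 0.743, and it was 0.594 over the 14 pairs with both folds under 20. It was 0.574 over the 12 pairs in which both expectations were under 2 times the floor. Both partners of each pair were chosen for strength, and the pairs are too few for more than a description.

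The 5 mutual pairs of most unequal fold had ratios of 15.8, 8.45, 7.11, 6.24 and 5.75. The first and second are the pairs on chromosomes 10 and 19 named above. The third was at chromosome 6, where 39 tags at positions 119487401 to 119488088 stood beside an interval 389 bp away with 4. The fourth, at chromosome 2, set 30 tags at positions 233784448 to 233784969 against 4 tags 248 bp away. The fifth, at chromosome 17, set an interval with 2 summits and 45 tags at positions 9919269 to 9920278 against a member with 7 tags 4771 bp away.

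Intervals with several summits were about as frequent beside members as in the whole list. They were the nearest neighbour of 70 members, or 4.39% (3.49% to 5.52%), and 4.98% (4.496% to 5.51%) of all intervals. Of these 70 neighbours, 65 had a higher fold than the member, taken at their best summit, which is chosen among several. Over all members, 806 of 1593, or 50.6%, had a nearest neighbour of higher fold. That share is largely fixed by the pairing. In 689 mutual pairs both partners were members, and at most 1 of each pair can have the stronger neighbour. The 351 intervals with several summits had a median fold of 8.95 wherever they lay, against 5.45 for members. Of intervals with several summits, 77 of 351, or 21.9% (17.9% to 26.6%), had a neighbour within 10 kb themselves.

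Most members came in pairs and a minority in longer runs. A run is a chain of intervals of any kind in which each gap is at most 10 kb. The members lay in 727 runs, of which 595 had 2 intervals and held 1144 members, or 71.8% (69.6% to 74.0%). The 132 runs of 3 or more intervals held 449 members, or 28.2% (26.0% to 30.4%), and occurred on all 20 chromosomes, led by chromosome 1 with 28 runs and chromosome 10 with 24. There were 94 runs of 3 intervals, 20 of 4, 10 of 5 and 3 of 6, and 5 runs had from 7 to 13 intervals. Runs of 2 spanned a median of 2.21 kb and runs of 3 a median of 7.52 kb.

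The median fold differed little with the length of the run, with overlapping confidence intervals. The median was 5.28 (5.28 to 5.57) in runs of 2 (n = 1144), 5.60 (5.28 to 5.84) in runs of 3 to 6 (n = 401) and 5.41 (4.86 to 5.92) in runs of 7 or more (n = 48). A fold of at least 10 was reached by 70 (6.12%), 21 (5.24%) and 1 (2.08%) of these members, against 7.76% of all intervals with 1 summit. The last share is 1 of 48, and its Wilson interval of 0.369% to 10.9% includes the share of all.

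The 2 longest runs were near neighbours on chromosome 2. The first, at positions 3892269 to 3932187, held 13 intervals in 39.9 kb with folds of 3.62 to 6.70, and the second, at positions 3838850 to 3868242, held 11 in 29.4 kb with folds of 4.26 to 8.17. Together with 1 interval between them they put 25 intervals, 24 of them members, into 93.3 kb, each resting on 4 to 11 tags. They supplied 24 of the 92 members of chromosome 2. In the first run 9 summits lay within 10.6 kb of the start, followed by gaps of 1476 to 9710 bp, and in the second the gaps ranged from 208 to 6880 bp.

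The third run differed in its input. At chromosome 4, positions 4526048 to 4554477, 10 intervals had folds of 3.50 to 8.71, on expectations of 2.33 to 55.1 times the genome-wide floor and up to 88 tags. The fourth, at chromosome 7, positions 9533299 to 9566888, held 9 intervals with folds of 4.20 to 10.6 on expectations of at most 1.31 times the floor. The fifth, at chromosome 3, positions 9398827 to 9428539, held 7 intervals with folds of 3.64 to 6.77. No interval of these runs exceeded a fold of 10.6. A fold of at least 10 was reached by 1 of the 48 members in these 5 runs, against 7.76% of all intervals with 1 summit. A fold of at least 20 was found for 0.343% of all intervals with 1 summit, and the 5 runs hold 50 intervals. So few intervals cannot show whether density and strength go together.

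**Figure D4:**
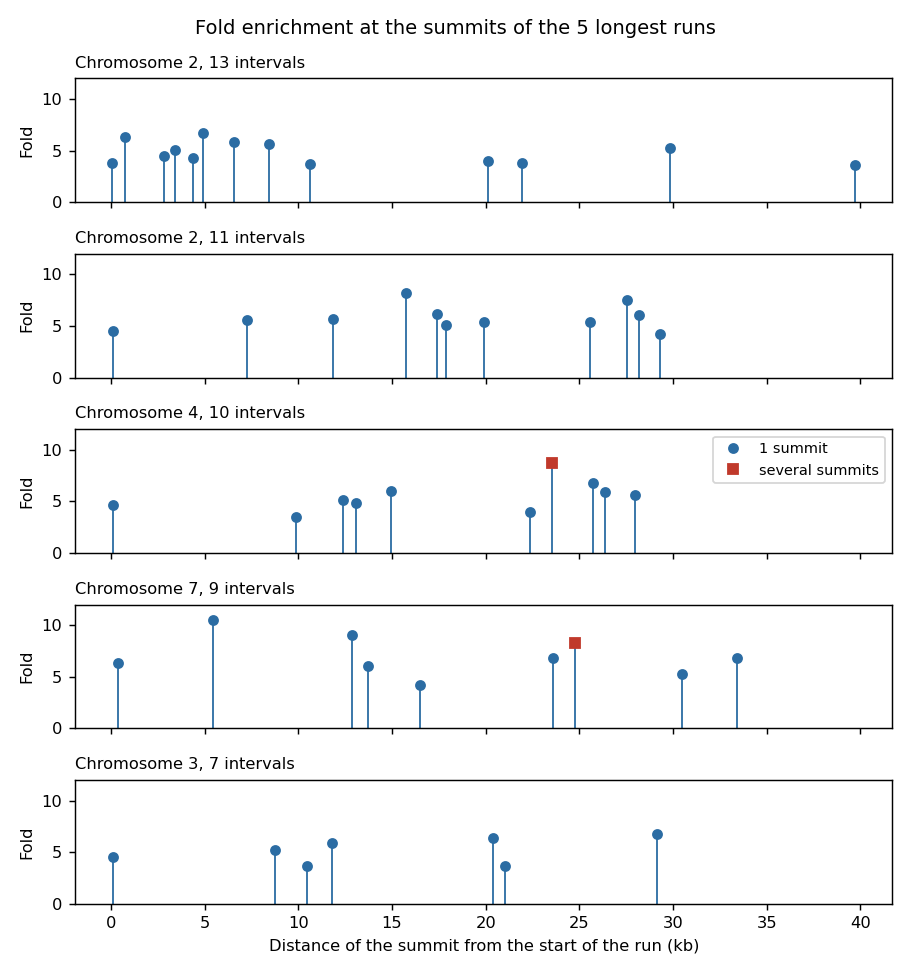
Each panel is 1 of the 5 longest runs, with the distance of each summit from the start of the run in kb on the x axis and its fold enrichment on the y axis; circles have 1 summit and squares several. All summits stay at or below a fold of 10.6, and the runs extend over 28.4 to 39.9 kb.

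Raised input was more frequent among members, in a small part of them. An expectation of at least 5 times the floor was found for 19 members, or 1.19% (0.765% to 1.86%), against 0.372% (0.238% to 0.581%) of the others and 0.567% of all intervals with 1 summit. In runs of 7 or more it was found for 4 of 48 members, all of them in the run on chromosome 4. The 19 lay on chromosomes 1, 3, 4, 16 and 19, several of them as each other's neighbours, and had 12 to 120 tags but folds of only 1.99 to 10.9. The extreme pair was on chromosome 1, where members at positions 55019538 to 55019735 and 55029414 to 55029612 had 55 and 57 tags on expectations of 83.2 and 85.1 times the floor, and folds of 1.99 and 2.02. At the other end, 33.1% of members (30.8% to 35.4%) had the genome-wide expectation, against 29.3% (28.1% to 30.6%) of the others and 30.2% of all. An expectation of at least 2 times the floor was found for 3.70% of members, 2.06% of the others and 2.45% of all. The part that local input has in the number of close neighbours was not tested. Leaving out every interval with at least 5 times the floor gave a share of members of 23.6%, but this removed too few intervals to bear on that part.

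The share of members differed between chromosomes by a factor of 2.69 (1.597 to 4.61) from the lowest to the highest. The factor was 4.12 at a fold of at least 5 and 4.51 with intervals at most 1 kb apart joined. The share was highest on chromosome 10, where 205 of 646 intervals with 1 summit, or 31.7% (28.3% to 35.4%), were members, followed by chromosome 16 with 31.0% (25.2% to 37.5%) and chromosome 1 with 28.9% (26.0% to 32.0%). It was lowest on chromosome 11, with 19 of 161 or 11.8% (7.69% to 17.7%), before chromosome 13 with 12.3% (8.48% to 17.5%) and chromosome 14 with 15.0% (10.8% to 20.4%). The 3 highest and the 3 lowest do not overlap in their intervals, while neighbours in the order do. These chromosomes were picked as extremes, so ranges that lie apart and a wide ratio are favoured by the choice. Chromosomes 1 and 10 held 15.4% and 12.9% of all members against 12.7% and 9.64% of all intervals with 1 summit.

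The shares followed the density of intervals, more closely for the wider gaps. Over the 20 chromosomes, Spearman's rho between the share of members and the number of intervals per Mb was 0.719. For the share with a gap of 1 to 10 kb it was 0.795, and for the share with a gap of at most 1 kb 0.266. The share with a gap of at most 1 kb ran from 6.21% on chromosome 11 to 14.4% on chromosome 17, and that with wider gaps from 4.43% on chromosome 13 to 19.97% on chromosome 10. Density enters both measures, all from 1 library, so these values are descriptions. Chromosome 2 went against the order, with the lowest density, 1.70 intervals per Mb, and a share of 22.4% (18.6% to 26.7%) that was 16.5% when the members of its 2 long runs were not counted as members.

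**Figure D5:**
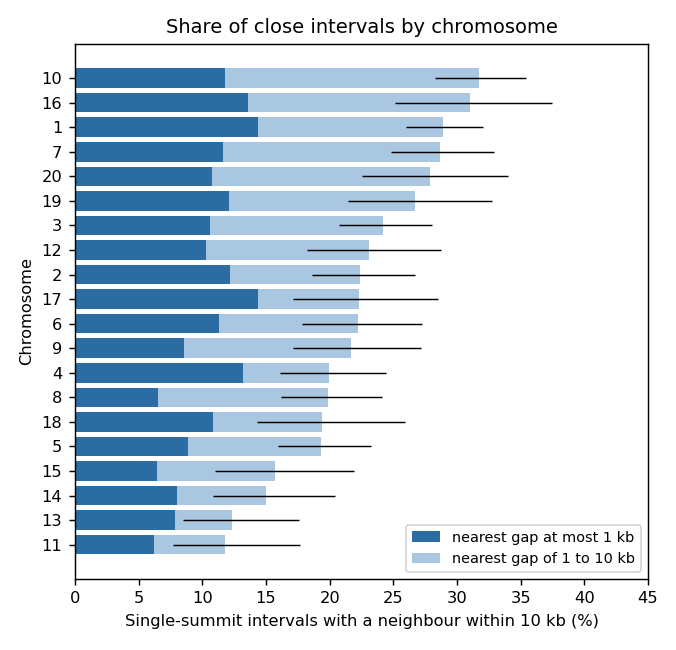
The bars show for each chromosome (y axis) the percent of intervals with 1 summit that have a neighbour within 10 kb (x axis), split into nearest gaps of at most 1 kb (dark) and of 1 to 10 kb (light), with the Wilson 95% interval of the whole as a line. The light part varies most, from 4.43% on chromosome 13 to 19.97% on chromosome 10.

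Members also lay in regions with more intervals at a larger scale. Counting only intervals with a gap of over 10 kb and a centre within 0.5 Mb on either side, so that no neighbour used by the rule entered, members had a median of 9 (8 to 10) and the other intervals with 1 summit a median of 5. The quartiles were 4 and 15 against 2 and 10. Density enters both the rule and this count, and intervals of the same run over 10 kb away were counted. The difference is therefore a description.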

How the data were processed

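The peak list of the SP1 IP library was used, and the input library entered through the background of the peak caller. The submitters' processing notes name fastp 0.20.0, Bowtie2 2.2.6, SAMtools 1.10, MACS2 2.2.7.1 and the build Rnor_6.0, among other tools, with no settings. As deposited by the authors, fold enrichment is a ratio on a linear scale, IP to background. Per peak, the p-value and q-value were deposited by the authors as −log10 values. The deposited score, which was not used, is the −log10 q times 10 with decimals dropped. No replicates were pooled.

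Summits with the same interval were joined, the summit of highest fold standing for intervals with several, and positions were counted from 1. Tags were recovered from fold = (tags + 1)/(expected + 1) and the Poisson tail, accepting a −log10 p within 0.0002, which gave exactly 1 count for 7525 of 7525 summits. Library depth is otherwise unknown, and few tags limit the precision of each fold. The recovery, gaps and runs were tested on simulated data. Shares have Wilson, counts exact Poisson and medians order-statistic 95% intervals. The ranges of the chromosome ratio and of the fold differences combine opposite limits of the 2 values compared and are not 95% intervals. No test was made. Regions named are the 10 members of highest fold, the 5 longest runs, the 5 closest (6 with a tie) and the 5 most unequal pairs, 5 intervals on each side of the limit, and the chromosomes of extreme share; the members of high input and the pairs at a −log10 q of at least 10 were named after their values were seen. Members, lists and settings were chosen with earlier results of these data known. The 80 intervals on chromosomes X and Y and on scaffolds are no members. Python 3.11.15, numpy 2.4.6, pandas 2.3.3 and scipy 1.17.1 were used.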

Additional observations from a re-analysis of the deposited data

How the results depend on the processing

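Of 59 values under 10 settings, 37 stayed within the interval or factor set for them, 21 moved and 1 changed sign. The settings with intervals at most 1 kb apart joined, without runs of 7 or more intervals, and without expectations of at least 5 times the floor were chosen after seeing the data. A limit of 5 kb gave a share of members of 17.3%, a median gap of 576 bp and 76 runs of 3 or more, and a limit of 20 kb gave 34.0%, 4766 bp and 245 runs. These follow from the limit. With members redefined by a summit distance of at most 10 kb (n = 1567), the median distance was 1620 bp. With intervals at most 1 kb apart joined, the share was 14.7%, the median gap 4985 bp and the number of runs 70, with a chromosome ratio of 4.51, so close pairs carry much of the main values.

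Stricter thresholds thin the list and so remove neighbours. A −log10 q of at least 5 gave a share of 9.41%, a median gap of 2192 bp, 20 runs, a median fold of members minus that of the others of -0.0704, and a ratio of chromosome shares of 5.64. A −log10 q of at least 10 left 31 members, with a share of 3.56%, a median gap of 4703 bp, 2 runs, a rho between partners of 0.743 over 17 pairs and a fold difference of 0.0178, against -0.499 in the full list. The range of the last difference, -1.37 to 1.45, spans that of the full list, and the cause was not tested. A fold of at least 5 gave a share of 16.1%, 60 runs, a fold difference of -0.395 (-0.743 to -0.0988) and a chromosome ratio of 4.12. The chromosome ratio has no value with a −log10 q of at least 10, where a chromosome had no member. No paired analysis was possible because there is 1 library per group.

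Few tags limit the weak end, where 9.60% of members and 8.91% of the other intervals rest on 4 tags.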

Other observations

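On the chromosomes and scaffolds that the rule leaves out, 4 of 58 intervals of the X chromosome, or 6.90% (Wilson 95% interval 2.71% to 16.4%), had a neighbour within 10 kb, as had none of 2 on the Y chromosome and 12 of 20 on scaffolds.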
